A study of Mus musculus with 16 samples.

Results

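The Schlafen genes (Slfn) are a mouse family clustered on chromosome 11, and 8 of the 46078 genes in the count table belong to it: Slfn1, Slfn2, Slfn3, Slfn4, Slfn5, Slfn8, Slfn9 and Slfn14. They were chosen by symbol, and every one of them was found in the table. RNA of the ileum mucosa had been sequenced from mice lacking Slfn3 (Slfn3KO) and from WT littermates, with 4 mice labelled female and 4 labelled male of each genotype, which gave 16 libraries. All mice were on a C57Bl/6 background, and no treatment is named. The sample labels give an age of 8 weeks, whereas the methods of the study give an older age. Neither the labels nor the methods name a promoter or Cre that would limit the loss of Slfn3 to one cell type, so that loss in epithelium and in immune cells cannot be told apart. The part of Slfn3 that was removed is not given in the sources used here.

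Schlafen proteins share a core domain with nuclease activity in several members, and they are sorted by size. A helicase-like part at the carboxy terminus marks the long members, Slfn5, Slfn8, Slfn9 and Slfn14. It is absent from the intermediate Slfn3 and Slfn4 and from the short Slfn1 and Slfn2. Several are known as genes induced by type I interferon, a cytokine of antiviral defence, and the family is known mainly from T cells, myeloid cells and, for Slfn3, the differentiation of intestinal epithelium. Slfn2 keeps resting T cells quiescent, Slfn4 is a gene of myeloid cells, and Slfn14 is known for its role in platelets and red cells.

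By the coordinates of the count table (mm10), the family spans 335.4 kb of chromosome 11, from 82951349 to 83286726. In GENCODE M21 no protein-coding gene that is not a member starts between the first and the last of the 8. The order is Slfn5 (ENSMUSG00000054404, 82951349 to 82962941, plus strand), Slfn9 (ENSMUSG00000069793, 82979629 to 82991830, minus strand), Slfn8 (ENSMUSG00000035208, 83002158 to 83020810, minus strand), Slfn2 (ENSMUSG00000072620, 83065112 to 83070678, plus strand), Slfn1 (ENSMUSG00000078763, 83116849 to 83122670, plus strand), Slfn4 (ENSMUSG00000000204, 83175186 to 83190221, plus strand), Slfn3 (ENSMUSG00000018986, 83191330 to 83215154, plus strand) and Slfn14 (ENSMUSG00000082101, 83275110 to 83286726, minus strand). Slfn4 ends 1108 bases before Slfn3 begins, which is the shortest gap in the cluster. The pseudogene Slfn10-ps lies between Slfn8 and Slfn2.

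RefSeq (GRCm38.p6) gives a promoter for all 8 members, and the 250 bases before each start were searched on both strands. RefSeq places the start of Slfn5 downstream of the start given in the count table, so that the Slfn5 window lies within the gene as counted. The core of the interferon-stimulated response element, read as GAAA, any 2 bases and GAAA again, occurred in 3 members, Slfn5, Slfn8 and Slfn9, and in 2.98% of 32851 promoters. The windows around them are shown because 2 of these genes, Slfn8 and Slfn9, are neighbours with similar letters around the match and had unlike fold changes between the genotypes. Each window holds 60 bases, is written 5′ to 3′ on the strand of the gene, and has the matching letters in capitals.
Slfn5, chr11:82951922-82951981: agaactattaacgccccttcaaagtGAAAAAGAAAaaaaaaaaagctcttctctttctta
Slfn8, chr11:83020824-83020883: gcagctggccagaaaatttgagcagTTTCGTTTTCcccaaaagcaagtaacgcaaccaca
Slfn9, chr11:82991841-82991900: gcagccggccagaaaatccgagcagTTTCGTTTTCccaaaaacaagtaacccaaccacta

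The short and intermediate members had other letters in common. The longest run shared by the upstream sequences of at least 4 members was 9 bases, and 2 runs of that length were found. One of them, ACTTCCTGG, was present in Slfn1, Slfn2, Slfn3 and Slfn4 and in 0.700% of all promoters. It is shown because 2 of these 4 genes, Slfn2 and Slfn4, hold most of the family's RNA in this tissue. The other, CTCCAGGAA, read on the opposite strand overlaps it in Slfn1, Slfn2 and Slfn4, and it was also present in Slfn14. The runs were picked because they are shared, so that their low frequency elsewhere is a description. The gamma-activated site, TTCNNNGAA, was found in none of the 8 windows and in 7.02% of all promoters.
Slfn1, chr11:83116721-83116780: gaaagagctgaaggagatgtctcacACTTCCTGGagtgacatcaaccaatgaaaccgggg
Slfn2, chr11:83065032-83065091: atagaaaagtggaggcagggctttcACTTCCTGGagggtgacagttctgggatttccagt
Slfn3, chr11:83191263-83191322: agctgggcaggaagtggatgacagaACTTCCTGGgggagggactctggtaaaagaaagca
Slfn4, chr11:83175088-83175147: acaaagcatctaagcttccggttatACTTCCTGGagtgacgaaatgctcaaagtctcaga

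Between 20823279 and 30813117 reads per library were counted on genes, and levels are given as CPM, counts scaled to the library total with TMM factors. At this depth 3 counts, taken as the floor for counting error alone, amounted to 0.102 to 0.150 CPM. Markers of the epithelium were high in all 16 libraries, with a summed level of 21191 to 65934 CPM over 11 genes, as the tissue label requires. Their pooled log2 fold changes lay between −0.63 (Fabp2, a fatty acid-binding protein of enterocytes) and 0.04 (Cdx2, an intestinal transcription factor). In 4 WT libraries, those labelled female WT 3 and 4 and male WT 3 and 4, Xist and Ddx3y went against the sex label, with Ddx3y at 41.0 and 49.4 CPM in the former and Xist at 442 and 394 CPM in the latter. The other 12 libraries followed their labels. The same 4 libraries held the highest levels of Cd79a, a chain of the B cell receptor complex that stands here for the content of lymphoid follicles, at 50.8, 56.3, 90.1 and 18.2 CPM in that order. The remaining WT libraries had 0.749 to 13.3 CPM and the 8 Slfn3KO libraries 0.257 to 14.9 CPM. The genotype results of the members are therefore given with and without these 4 libraries.

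The members differed widely in level. Per kb of exon, Slfn2 had a median of 9.57 CPM per kb over the 16 libraries, and Slfn4 followed with 5.79 CPM per kb. The ranges of these 2 genes overlapped, and Slfn2 was the higher in 12 of 16 libraries. Slfn4 was above Slfn9 in 16 of 16 libraries without any overlap of their ranges, since the lowest Slfn4 value was 3.44 CPM per kb and the highest Slfn9 value was 2.10 CPM per kb. Slfn9 (median 1.03 CPM per kb), Slfn5 (0.910), Slfn1 (0.636) and Slfn8 (0.0963) came next, and each overlapped the next in the order. Slfn9 and Slfn5 could not be ordered, with Slfn9 the higher in 6 of 16 libraries.

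Slfn2 and Slfn4 together made up most of the family's RNA per length in every library. Their share was 82.0% to 89.8% in WT libraries (median 86.1%) and 75.5% to 86.8% in Slfn3KO libraries (median 80.6%). Slfn8 held 0.244% to 3.43% in WT and 0.0640% to 1.57% in Slfn3KO libraries. The shares of 1 gene depend on all others in the sum, so the levels of single genes below are the primary values.

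The targeted gene was near the limit of detection in both genotypes. Slfn3 had 1, 4, 7 and 13 counts in the libraries labelled female WT 1 to 4 and 1, 2, 19 and 0 counts in male WT 1 to 4. It had 0, 0, 0 and 2 counts in female Slfn3KO 1 to 4 and 1, 0, 0 and 0 counts in male Slfn3KO 1 to 4. The genotypes overlapped at these low counts, although 7 of 8 WT libraries and 2 of 8 Slfn3KO libraries had any count. Summed over libraries there were 47 counts in WT and 3 in Slfn3KO, a ratio of 14.7 per read sequenced with an exact 95% counting interval of 4.74 to 74.0. Without WT libraries 3 and 4 of both labels, 8 counts in WT were left and the ratio was 4.82 (1.16 to 28.2). Without female Slfn3KO 4, which held 2 of the 3 Slfn3KO counts, it was 38.5 (6.58 to 1553). Of 8 members tested singly, the exact two-sided permutation test of mean CPM within sex label gave p = 0.00735 for Slfn3, unadjusted, and 0.0178 without those 4 WT libraries. Since the removed part of Slfn3 is unknown here, the 3 counts in Slfn3KO libraries cannot be placed inside or outside of it, and 7.39% of the 50-base stretches of Slfn3 transcripts are also found in Slfn4.

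Slfn14, the ribosome-associated member, was not detectable at this depth. It had 1 count in 1 WT library, 1 count in each of 3 Slfn3KO libraries and 0 in the others, all under the floor of 3 counts. Of the 8 platelet and red cell markers, most were at 0 in no library, and Ppbp, a platelet chemokine, was at 0 in 7 libraries. The 3 that could be tested lay between Hba-a1, a globin gene with a near-identical copy (−0.81), and Itga2b, a platelet integrin (0.18), in pooled log2 fold change. The summed level of that list was 6.16 to 46.2 CPM in WT and 8.80 to 24.6 CPM in Slfn3KO libraries. Slfnl1, a Schlafen-like gene on another chromosome, had 0 to 2 counts in every library.

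**Figure D1:**
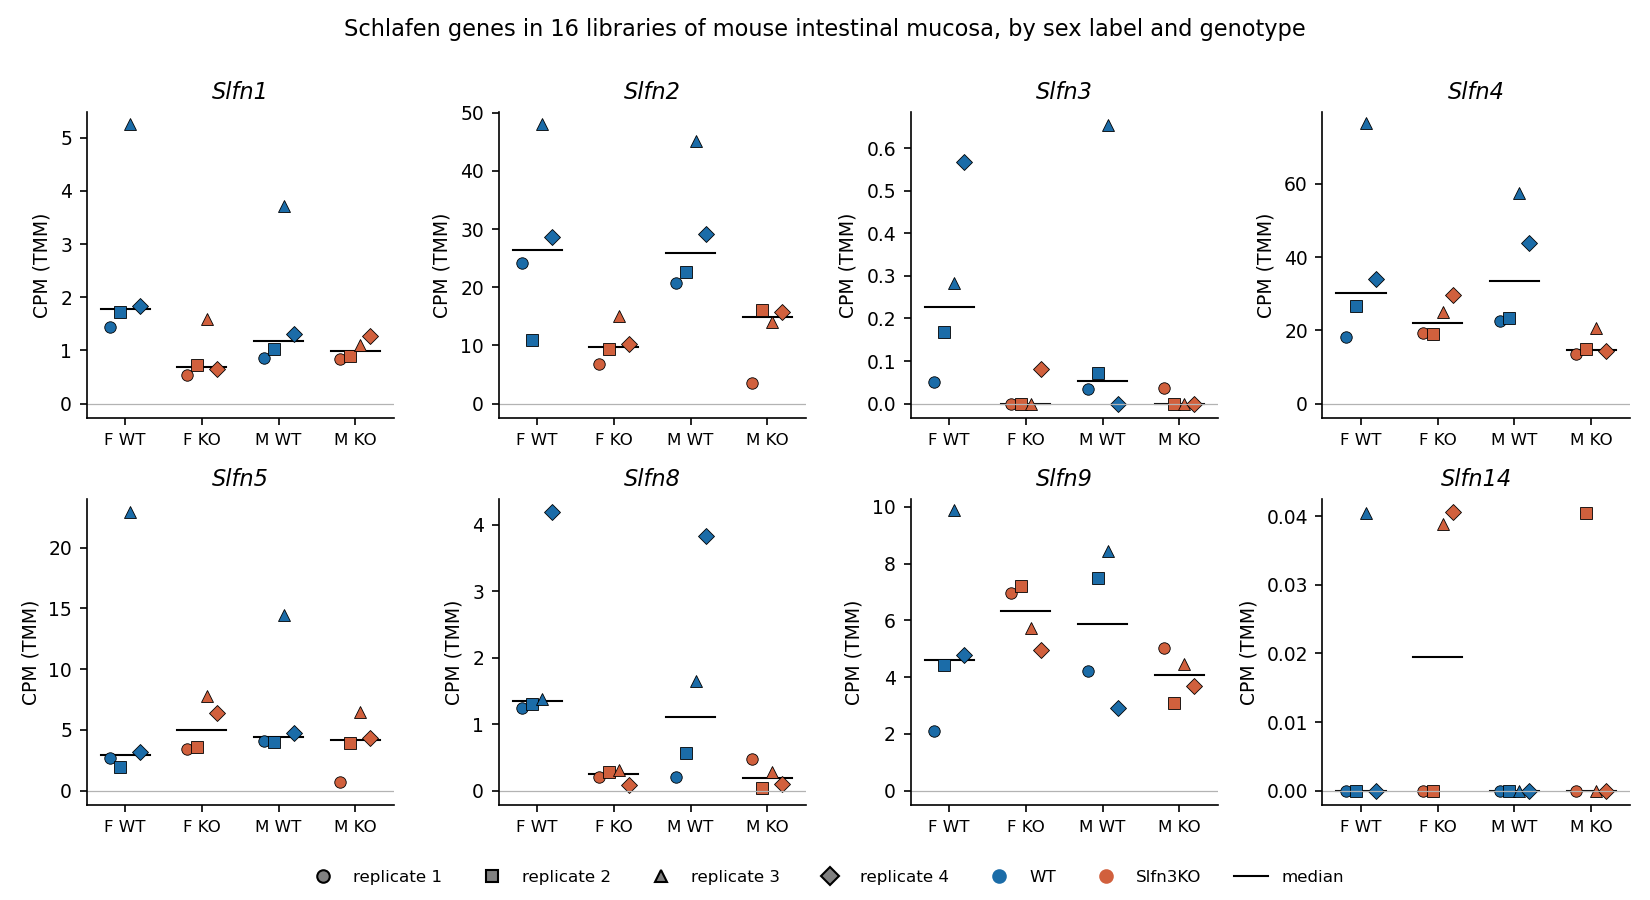
Level of each Schlafen gene (y axis, CPM after TMM scaling; each panel has its own scale) in each of the 16 libraries, by sex label (F, M) and genotype. Symbols give the replicate number, colours the genotype, and the black line the median of the 4 libraries. For Slfn1, Slfn2, Slfn4, Slfn5 and Slfn9 the highest value of each WT group is replicate 3, and for Slfn8 it is replicate 4.

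Whether loss of Slfn3 went with other levels of the remaining members was asked over all 16 libraries, with the sex label as a covariate. Slfn8, Slfn2, Slfn1 and Slfn4 were lower in Slfn3KO than in WT mucosa, by 2.0-fold to 7.9-fold, whereas the differences of Slfn5 and Slfn9 lay within 1.5 times their SE. None of the 6 members that could be tested passed the adjusted threshold. Across the 14377 genes tested, edgeR called 0 genes at an adjusted p under 0.05 and 1.5-fold (0%), and the smallest adjusted p was 0.335. At an unadjusted p under 0.05 and 1.5-fold, 4 members were lower and 0 higher, where 4.89% of all genes were lower and 1.44% higher. Slfn8, 1 of these 4, passed the filter on low values through WT, being over it in 7 WT libraries and 1 Slfn3KO library. Its entry thus favoured a lower value, and its place in the count is a description. DESeq2 called 43 genes (0.299%), and Slfn2 and Slfn8 were among them.

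Slfn8 is a long member with the helicase-like part. In the libraries labelled female it had 1.25, 1.31, 1.37 and 4.18 CPM in WT 1 to 4 and 0.210, 0.279, 0.312 and 0.0812 CPM in Slfn3KO 1 to 4. In those labelled male it had 0.205, 0.571, 1.65 and 3.84 CPM in WT and 0.476, 0.0406, 0.283 and 0.0946 CPM in Slfn3KO. The groups labelled female did not overlap, while in those labelled male the library WT 1 fell inside the Slfn3KO range. The fitted log2 fold change was −2.98 (SE 0.59), a 7.89-fold lower level in Slfn3KO, with an unadjusted p of 0.000120 in edgeR that ranked 4 among 14377 genes, and an adjusted p of 0.335. DESeq2 gave −3.01 with an adjusted p of 0.000596. The exact permutation test gave p = 0.00122, unadjusted. Slfn8 exceeded the filter on low values (0.400 CPM) in 7 WT libraries and in 1 Slfn3KO library, so it entered the fit through WT.

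Slfn2, the short member known for T cell quiescence, was the most abundant per length. The libraries labelled female WT 1 to 4 had 24.1, 10.9, 48.0 and 28.7 CPM and female Slfn3KO 1 to 4 had 6.87, 9.35, 15.1 and 10.3 CPM. The libraries labelled male WT had 20.7, 22.6, 45.1 and 29.1 CPM and male Slfn3KO 3.59, 16.1, 14.03 and 15.7 CPM. Every male Slfn3KO library lay below every male WT library, and in the female groups only WT 2 lay within the Slfn3KO range. Pooled, Slfn2 was 2.56-fold lower in Slfn3KO, with a log2 fold change of −1.36 (SE 0.32), an unadjusted edgeR p of 0.000744, rank 23, and an adjusted p of 0.335. The adjusted p in DESeq2 was 0.0196, and the exact permutation test gave 0.000816, unadjusted. Of the markers of T cells, in which Slfn2 acts, 11 of 11 had a log2 fold change below 0, as had 53.6% of all genes, with a median of −0.61 against −0.02 over all genes and a range from −2.09 (Cd2, an adhesion receptor) to −0.29 (Cd3e, a T cell receptor chain). At an unadjusted p and 1.5-fold 4 of 11 were lower, as were 4.89% of all genes, and 0 of 11 were with Cd79a in the fit (median −0.36) or without WT libraries 3 and 4 (median −0.37). Their summed level was 54.8 to 228 CPM in WT and 53.0 to 145 CPM in Slfn3KO libraries, and their part in the Slfn2 difference was not tested. In these bulk samples, fewer cells of a type and less RNA per cell cannot be told apart.

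Slfn4, the intermediate member whose gene adjoins Slfn3, had 18.2, 26.5, 76.6 and 33.9 CPM in female WT 1 to 4 and 19.3, 19.1, 24.9 and 29.8 CPM in female Slfn3KO 1 to 4. It had 22.7, 23.3, 57.6 and 43.8 CPM in male WT and 13.7, 14.8, 20.6 and 14.3 CPM in male Slfn3KO. The male groups did not overlap, and the female groups did. The pooled log2 fold change was −1.001 (SE 0.28; adjusted p = 0.335 in edgeR and 0.0608 in DESeq2), and the exact permutation test gave p = 0.0151, unadjusted. Slfn4 is a gene of myeloid cells, and of 11 macrophage genes 1 (Lyz2, lysozyme 2, −1.15) was lower at an unadjusted p and 1.5-fold, as were 4.89% of all genes, and the list had a median of −0.20 and its highest value in Fcgr1, an antibody receptor (0.07). With Cd79a in the fit Lyz2 was at −0.01 and the median at 0.12, and without WT libraries 3 and 4 they were at 0.16 and 0.18. The summed level of the macrophage genes was 175 to 401 CPM in WT and 158 to 240 CPM in Slfn3KO. Neutrophil and monocyte markers were low, with a summed level of at most 6.40 CPM over 8 genes and Ly6g at 0 in 11 libraries. The 3 tested lay between Ccr2, a monocyte receptor (−0.69), and Csf3r, the G-CSF receptor (−0.17). Ccr2 had 0 to 2.86 CPM and Csf3r 0.163 to 1.14 CPM. Macrophage markers were present in all libraries and their part in the Slfn4 difference was not tested.

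Slfn1, the other short member, had 1.45, 1.73, 5.26 and 1.83 CPM in female WT 1 to 4 and 0.545, 0.717, 1.60 and 0.649 CPM in female Slfn3KO 1 to 4. In the male groups it had 0.853, 1.03, 3.72 and 1.31 CPM in WT and 0.843, 0.893, 1.10 and 1.28 CPM in Slfn3KO. Its pooled log2 fold change was −1.17 (SE 0.38; unadjusted p = 0.00777 and adjusted p = 0.335 in edgeR), and the exact permutation test gave p = 0.0196, unadjusted. In the male groups, WT 1 and WT 2 lay within the Slfn3KO range, WT 4 was just above it and WT 3 was far above it.

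Slfn5 and Slfn9, 2 long members at one end of the cluster, gave no difference past the spread. Slfn5, an interferon-induced gene, had 1.90 to 22.9 CPM in WT (median 4.03) and 0.733 to 7.79 CPM in Slfn3KO (median 4.14). The WT libraries numbered 3 had 22.9 and 14.5 CPM, and the other 6 WT libraries had at most 4.77 CPM. Its log2 fold change was −0.70 (SE 0.53; adjusted p = 0.613 in edgeR), and leaving out female WT 3 or male WT 3 gave −0.01 or −0.37. Slfn9 had 2.10 to 9.91 CPM in WT (median 4.61) and 3.08 to 7.20 CPM in Slfn3KO (median 4.99), with a log2 fold change of −0.15 (SE 0.29; adjusted p = 0.835 in edgeR). Its direction turned when the library labelled female WT 3 was left out (0.04).

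The neighbours Slfn8 and Slfn9 share the interferon response letters shown above, but their levels were not proportional. Slfn8 made up 4.62% to 57.0% of the summed counts of the pair in WT libraries (median 19.6%) and 1.30% to 8.67% in Slfn3KO libraries (median 3.32%). In male WT 4, 94 counts of Slfn8 stood beside 71 of Slfn9, and in male Slfn3KO 4 there were 2 beside 78. This ratio was looked at after the values were seen and is given without a test. Of the 50-base stretches of Slfn8 transcripts, 14.6% also occur in another gene, 10.1% in Slfn10-ps, and for Slfn9 the share is 11.5%, so reads from the 3 loci can be confused in part. Slfn10-ps itself had 0.249 to 1.58 CPM in WT and 0.220 to 0.717 CPM in Slfn3KO, with a log2 fold change of −0.72 (SE 0.41; adjusted p = 0.506 in edgeR). Slfn3 shares 15.6% of its stretches with other genes, Slfn4 10.8% (6.28% with Slfn3), Slfn2 4.27% and Slfn1 0.606%.

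**Figure D2:**
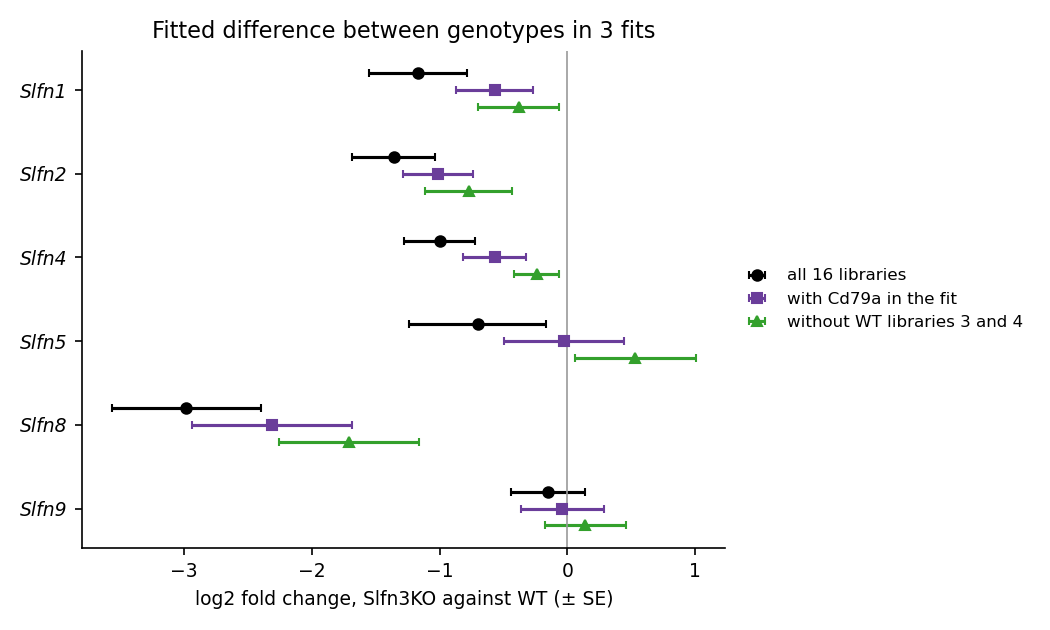
Fitted log2 fold change of Slfn3KO against WT (x axis) with its SE for the 6 members tested, in 3 fits: all 16 libraries, all 16 libraries with log2 CPM of Cd79a as a covariate, and the 12 libraries left without WT 3 and 4 of both sex labels. Slfn8 lies at −2.98, −2.31 and −1.71 and Slfn2 at −1.36, −1.01 and −0.77, while Slfn5 moves from −0.70 to 0.53.

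The study compared the genotypes within each sex, and the same was done by label. At an unadjusted p under 0.05 and 1.5-fold, edgeR gave Slfn2, Slfn4 and Slfn8 as lower in the male groups, where 1.15% of 14124 genes were lower, and Slfn1, Slfn2 and Slfn8 in the female groups, where 5.69% of 14064 genes were lower. With the replicate number as a block, Slfn8 in the male groups no longer passed (−2.37, unadjusted p = 0.0649 in edgeR). At the adjusted threshold it called 0 genes in either, while DESeq2 called 14 in the male (0.0993%) and 504 in the female groups (3.59%). Among the latter were Slfn2 (adjusted p = 0.0253) and Slfn8 (adjusted p = 0.000159). Slfn2 and Slfn4 had every Slfn3KO library below every WT library in the male groups, as had 1.25% of genes, and Slfn8 in the female groups, as had 2.49%. Pooled over labels no member separated the genotypes without overlap, and 0.00696% of genes did.

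The log2 fold change of Slfn8 was −2.74 (SE 0.97) in the male and −3.18 (SE 0.57) in the female groups. That of Slfn2 was −1.26 (SE 0.46) and −1.43 (SE 0.42), and that of Slfn4 −1.22 (SE 0.33) and −0.75 (SE 0.41). Slfn1 had −0.76 (SE 0.49) and −1.55 (SE 0.53). The difference between the sex labels was tested as an interaction, in which edgeR called 0 genes (0%), with 946 at an unadjusted p and 1.5-fold, none of them members, and DESeq2 called 24 genes (0.162%) and 0 members. In that edgeR fit the largest interaction of a member was that of Slfn1, −0.81 (SE 0.75; adjusted p = 0.654), and Slfn9 had 0.72 (SE 0.57). Other fits, given below, held larger values for other members. Without WT libraries 3 and 4 the smallest adjusted p of all genes for the interaction was 0.0216 in edgeR. Markers of epithelium and of smooth muscle were also set beside the members by label, and 0 of them passed the adjusted threshold in edgeR. Of the 11 epithelial markers, 11 had a log2 fold change below 0 in the female groups (median −0.52, lowest Fabp2 at −1.46) and 4 in the male groups (median 0.03). Their summed level was 21191 to 37399 CPM in female Slfn3KO and 27930 to 65934 CPM in female WT libraries. At an unadjusted p and 1.5-fold, 1 of 11 epithelial markers was lower in the female groups, where 5.69% of genes were. With Cd79a in the fit 7 of 11 were lower there (median −0.85), where 7.65% of genes were. Without WT libraries 3 and 4 it was 3 of 11 (median −0.78), where 7.07% of genes were. Markers of smooth muscle, a layer beneath the mucosa, had a median of 1.56 in the female groups (5 tested, Actg2 highest at 3.25) and −0.84 in the male groups (6 tested), with summed levels of 4.79 to 76.7 CPM in female Slfn3KO and 3.39 to 12.6 CPM in female WT libraries. In female Slfn3KO 1 to 4 the muscle markers summed to 34.6, 76.7, 8.38 and 4.79 CPM. In male WT 4 they summed to 110 CPM, beside 6.92 to 15.5 CPM in the other male WT and 6.77 to 56.8 CPM in the male Slfn3KO libraries. The part of the epithelial and muscle markers in the values of the members was not tested. Since 2 of the 4 WT libraries under each label went against it, the values by label describe labels and not sexes.

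The pooled fold changes of the 6 members tested were also fitted without the 4 WT libraries with the most Cd79a. Without them, Slfn8 was still 3.27-fold lower in Slfn3KO (log2 fold change −1.71, SE 0.55; adjusted p = 0.762 in edgeR) and Slfn2 1.71-fold lower (−0.77, SE 0.34; adjusted p = 0.762). Both had an unadjusted p under 0.05 (0.00921 and 0.0434 in edgeR), where 1.36% of 14732 genes were lower at that p and 1.5-fold, and the exact permutation test gave 0.0133 for each. Slfn1 (−0.38, SE 0.32) and Slfn4 (−0.24, SE 0.18) were no longer past the unadjusted threshold, with exact permutation p of 0.276 and 0.307. Slfn5 (0.53, SE 0.47) and Slfn9 (0.14, SE 0.32) lay on the other side of 0. Within the labels, Slfn8 was lower in the female groups at an unadjusted p and 1.5-fold (−2.51, SE 0.47), where 7.07% of genes were, and at −0.72 (SE 0.84; unadjusted p = 0.417 in edgeR) in the male groups. Slfn5 (1.2005, SE 0.43) and Slfn9 (0.92, SE 0.35) were then higher in the female groups, where 8.64% of genes were, and were at −0.03 and −0.51 in the male groups. By that rule no member was lower in the male groups, where 1.35% of genes were.

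The level of each member was then set against Cd79a over the 16 libraries, with sex label and genotype in the fit. The slope gives the log2 change of a member for each doubling of Cd79a. Slfn1 rose with Cd79a, with a slope of 0.25 (SE 0.06; adjusted p = 0.0223 in edgeR), and 5.82% of 14376 genes rose at that threshold. Slfn5 (0.31, SE 0.10; adjusted p = 0.110), Slfn2 (0.19, SE 0.06; adjusted p = 0.0988), Slfn4 (0.17, SE 0.05; adjusted p = 0.0734) and Slfn8 (0.24, SE 0.13; adjusted p = 0.469) did not pass, and Slfn9 had a slope of 0.05 (SE 0.07). In the 8 WT libraries alone Slfn4 passed (0.25, SE 0.06; adjusted p = 0.0408 in edgeR), as did 5.77% of genes. In the 8 Slfn3KO libraries alone none of the 5 members tested passed, where 0.636% of genes did. Slfn8 was too low there to be tested. Without the 4 WT libraries no member passed, where 1.24% of genes did, and the slope was 0.17 for Slfn1, 0.01 for Slfn4 and −0.02 for Slfn8. The call for Slfn1 was also lost without male WT 1, male WT 2 or male WT 3, with adjusted p between 0.0746 and 0.155, and when replicate numbers entered as a block (slope 0.15, adjusted p = 1.0 in edgeR).

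Within the 8 WT libraries the relation to Cd79a was clearest for Slfn4, Slfn1 and Slfn8. Slfn4 had r = 0.81 (exact permutation p = 0.0194) and rho = 0.79 (exact p = 0.0279), and r stayed at 0.82 without the 2 libraries farthest from the median of Cd79a. Slfn1 had r = 0.81 (exact permutation p = 0.0142) and rho = 0.83 (exact p = 0.0154), and r was 0.65 without those 2 libraries. Slfn8 had r = 0.75 (exact permutation p = 0.0271) and rho = 0.86 (exact p = 0.0107), but r dropped to 0.34 without them, so that this relation rests on these libraries. Within the 8 Slfn3KO libraries, Slfn4 had r = 0.14 (exact permutation p = 0.736) and Slfn8 r = −0.22 (exact permutation p = 0.608), which became 0.67 without the 2 farthest libraries. Slfn2 had r = 0.74 (exact permutation p = 0.0365), which dropped to 0.21 without the 2 farthest libraries, and Slfn5 r = 0.71 (exact permutation p = 0.0457), which dropped to 0.44. In WT, Slfn9 went from r = 0.35 to 0.85 by the same exclusion. Over both genotypes 12 relations were computed, and their p are unadjusted.

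**Figure D3:**
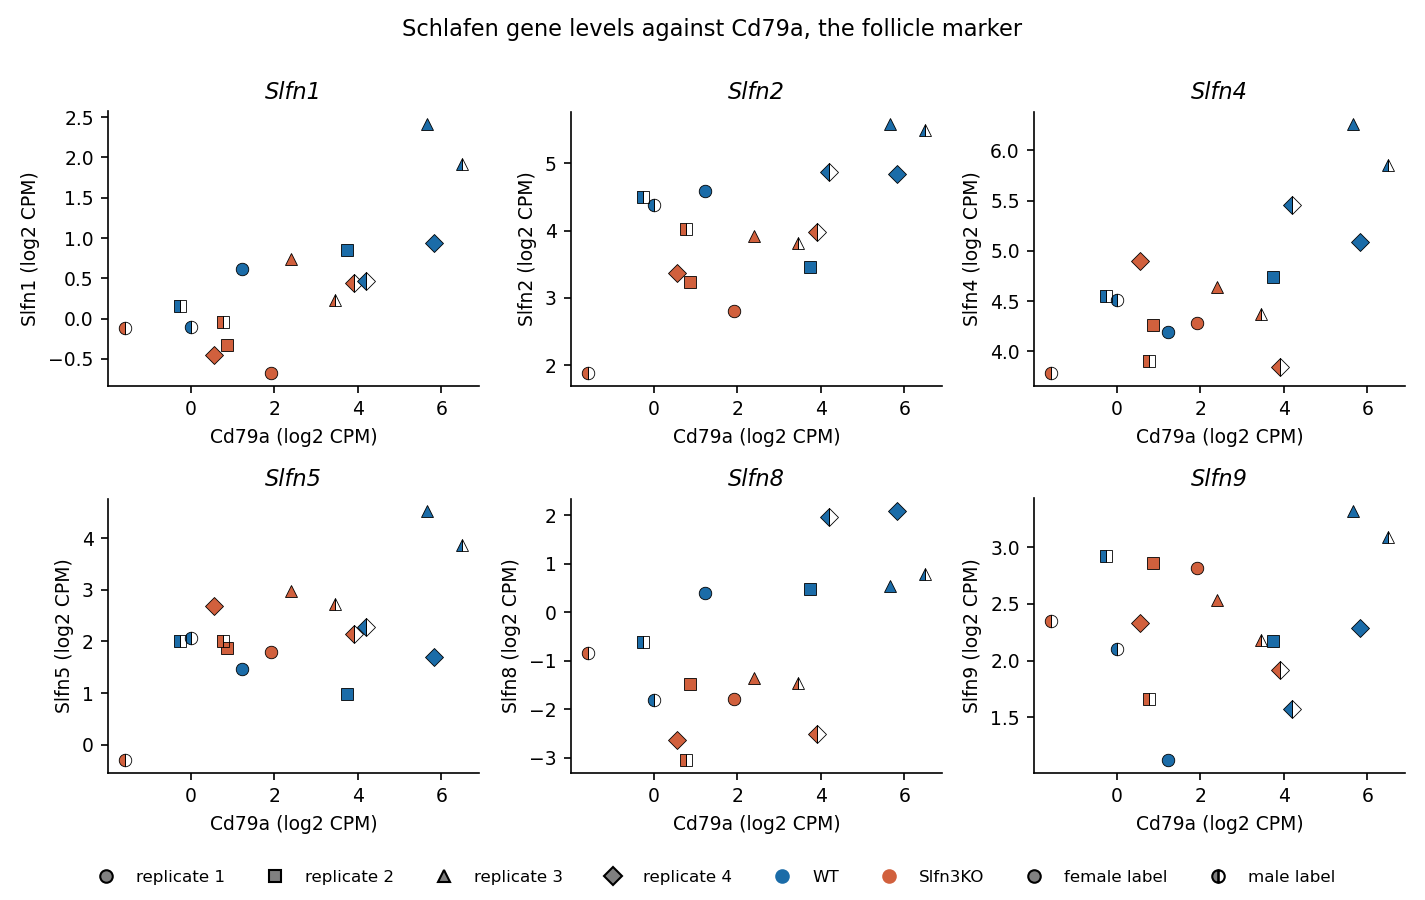
Level of 6 Schlafen genes (y axis, log2 CPM with a prior count of 2) against Cd79a (x axis, log2 CPM) in the 16 libraries. Symbols give the replicate number, colours the genotype, and symbols filled on the left only the male label. WT libraries 3 and 4 lie to the right of all others, and the 3 WT libraries lowest in Cd79a lie above every Slfn3KO library for Slfn2.

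With Cd79a as a covariate in the fit of genotype, the pooled differences of all 6 members tested were smaller. Slfn8 had a log2 fold change of −2.31 (SE 0.63), Slfn2 −1.01 (SE 0.27), Slfn4 −0.57 (SE 0.25) and Slfn1 −0.57 (SE 0.30), and Slfn5 (−0.03) and Slfn9 (−0.04) were near 0. Slfn2 and Slfn8 had unadjusted p of 0.00200 and 0.00220 in edgeR and were lower at 1.5-fold, where 1.06% of 14376 genes were. All members had an adjusted p of at least 0.807, and edgeR called 0 genes. Within the labels, Slfn2 (−1.09, SE 0.31) and Slfn4 (−0.95, SE 0.19) were then lower at an unadjusted p and 1.5-fold in the male groups, where 1.34% of genes were, and Slfn8 was at −2.19 (SE 1.04). In the female groups Slfn8 was lower (−2.32, SE 0.61), where 7.65% of genes were, and Slfn9 was higher (1.30, SE 0.44), where 11.9% of genes were. None of these passed the adjusted threshold. The summed level of 13 B cell and follicle markers, whose pooled log2 fold changes lay between −3.19 (Cxcl13, the follicle chemokine) and −1.92 (Cd72, a B cell receptor regulator), was 8.96 to 1158 CPM in WT and 5.57 to 163 CPM in Slfn3KO libraries. At an unadjusted p and 1.5-fold, 13 of 13 were lower (median −3.02), as were 4.89% of all genes. Without WT libraries 3 and 4, 0 of 13 were lower (median 0.08), where 1.36% of all genes were. With the mean of the 12 markers other than Cd79a as the covariate in place of Cd79a, the values were −2.18 for Slfn8 and −1.01 for Slfn2.

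The libraries varied in how the levels of Cd79a and Slfn2 went together. Male WT 1 and WT 2 had 0.921 and 0.749 CPM of Cd79a, lower than 7 of the 8 Slfn3KO libraries, and 20.7 and 22.6 CPM of Slfn2, above the highest Slfn3KO value of 16.1 CPM. Female WT 2, with 13.3 CPM of Cd79a, had 10.9 CPM of Slfn2, inside the Slfn3KO range. These libraries were singled out after their values were seen. For Slfn8, male WT 1 and WT 2 had 0.205 and 0.571 CPM beside at most 0.476 CPM in Slfn3KO.

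Because several Schlafen genes are interferon-induced, the members were set beside a list of interferon targets and one of the signalling chain. All 22 interferon targets had a log2 fold change below 0 in Slfn3KO, as had 53.6% of all genes, with a median of −1.05, and 18 of 22 were lower at an unadjusted p and 1.5-fold in edgeR, against 4.89% of all genes. None passed the adjusted threshold. The lowest was Oas2, an RNA-sensing synthetase (−1.96, SE 0.51), and the highest Eif2ak2, the kinase PKR (−0.22, SE 0.13). With Cd79a in the fit 11 of 22 passed in the same way with a median of −0.65, where 1.06% of all genes did, and without the 4 WT libraries 3 of 22 with a median of −0.54, where 1.36% of all genes did. In the last fit Xaf1, an interferon-induced gene of cell death, was lowest at −1.47 and Ifit2, an RNA-binding antiviral protein, highest at 0.25.

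The signalling chain held 9 genes, and all of them had a log2 fold change below 0, as had 53.6% of all genes, with a median of −0.24. At an unadjusted p and 1.5-fold, 1 of 9 was lower, Usp18, an interferon-induced inhibitor of the receptor (−1.10, SE 0.39), as were 4.89% of all genes. With Cd79a in the fit Usp18 still passed by that rule (−0.89, unadjusted p = 0.0382 in edgeR), where 1.06% of all genes did. Without the 4 WT libraries it was at −0.78 (SE 0.42; unadjusted p = 0.0884 in edgeR) and no gene of the chain passed. The one closest to 0 was Tyk2, a receptor kinase (−0.12, SE 0.07). The summed level of the targets was 989 to 2722 CPM in WT and 577 to 1426 CPM in Slfn3KO libraries, and their part in the levels of the members was not tested. Among the members bearing the response element letters, the log2 fold change was −2.98 (SE 0.59) for Slfn8, −0.70 (SE 0.53) for Slfn5 and −0.15 (SE 0.29) for Slfn9. Differences between these members were not tested.

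**Figure D4:**
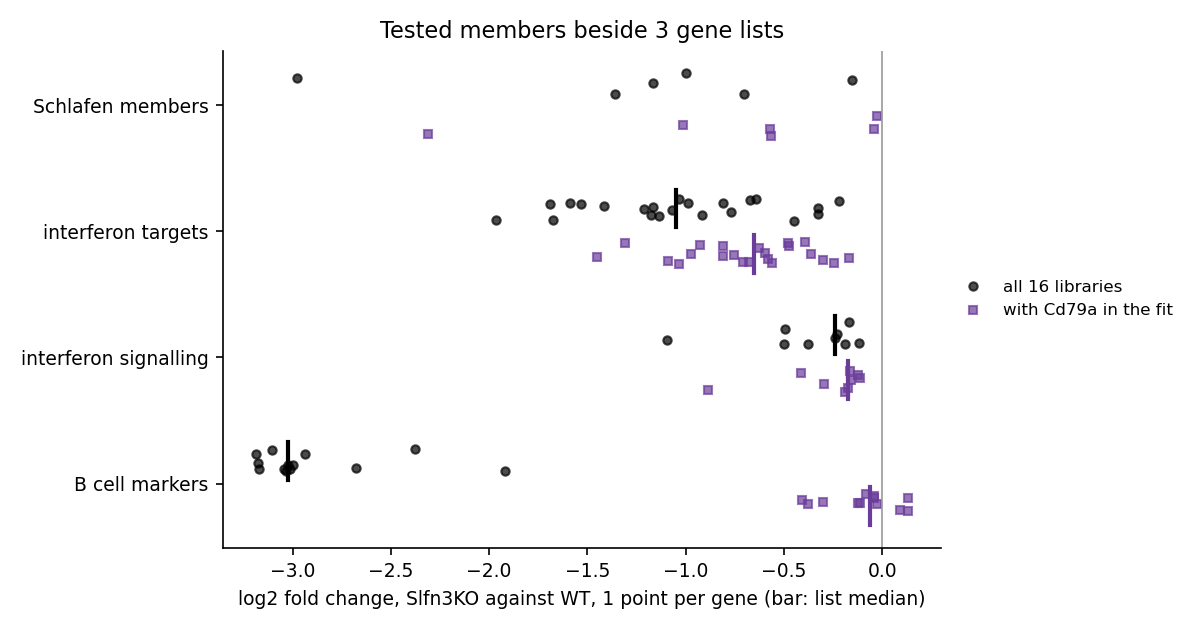
Pooled log2 fold change of Slfn3KO against WT (x axis) for the 6 Schlafen genes tested and for each gene of 3 lists, without (black circles) and with (purple squares) Cd79a as a covariate. Bars give the median of a list, which is −1.05 and −0.65 for the interferon targets, −0.24 and −0.17 for interferon signalling, and −3.02 and −0.06 for B cell markers, with Cd79a itself left out of the latter.

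The genes whose level followed each member most closely over the 16 libraries differed between members. Slfn5 was closest to Gbp3, an interferon-induced GTPase (r = 0.93), and to the interferon target Ifit2 (r = 0.91). Slfn1 was closest to Ifi206 (r = 0.92), an interferon-inducible gene, and H2-T24 (r = 0.91), a non-classical class I gene. Slfn2 was closest to Gpr18, a receptor of lymphocytes, and Gng2, a G protein subunit (r = 0.93 and 0.92). Slfn8 was closest to Gp2, the bacterial receptor of M cells over lymphoid follicles (r = 0.87), and Zmat1 (r = 0.82). Slfn4 was closest to Zcchc2 and 4833407H14Rik (r = 0.93 and 0.92), and Slfn9 to Fubp1, a DNA-binding regulator, and Taf4b, a TFIID subunit (r = 0.92 for both). These r share the libraries and their genotype and follicle content, and were the highest of all genes tested, so they are descriptions. Among members, the closest pair was Slfn1 and Slfn4 (r = 0.76), and Slfn8 with Slfn9 was the least alike (r = 0.02).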

How the data were processed

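Ileum RNA was made into TruSeq Stranded libraries and read as single reads of 50 bases. After adapter trimming (cutadapt) and alignment to mm10 (STAR), the authors deposited raw counts per gene for the 16 libraries. Its header names featureCounts 1.4.6-p4 with reverse-stranded counting, the submitters' processing notes give featureCounts 1.4.6 and DESeq2 1.22.2, and the paper names HTSeq. Exon lengths are those deposited in the table, and symbols came from GENCODE M21 (45143 of 46078 identifiers).

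Counts were tested with edgeR 4.0.16 in R 4.3.3 (TMM factors, filterByExpr, robust quasi-likelihood F test, Benjamini-Hochberg adjustment over all genes tested), and DESeq2 1.42.0 was an alternative. Single members were also tested by exact permutation of genotype within sex label (4900 labellings, numpy 2.4.6), and the 50-base stretches of GENCODE transcripts were matched exactly. Groups follow the labels. Named genes were all members, Slfn10-ps, Slfnl1, Cd79a, Xist, Ddx3y, the highest and lowest gene of each list described and the 2 genes most like each member. Ppbp, Ly6g and, by label, Actg2 were named after their values were seen. The members and lists were chosen with earlier results of these data known. Replicate numbers mark different mice. The deviations of same-numbered libraries from their group means had r of 0.16 to 0.54 in the male groups and −0.39 to 0.15 in the female groups. The WT library most like a Slfn3KO library had the same number for male replicates 2 and 3, and for no other. The tests of genotype, of the interaction and of the slope on Cd79a, and the permutation test of genotype, were run on simulated data. In the simulated slopes Cd79a was given almost no noise, unlike a measured gene. The genotype fits with Cd79a as a covariate and the fits that left out libraries were not simulated.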

Additional observations from a re-analysis of the deposited data

Results flagged for a closer look

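In each group of 4 libraries, the highest or lowest value of a member was compared with the others by Dixon's ratio. Of 26 combinations of member and group, 9 held a library far from the rest, where chance gives about 1 in 20. In the group labelled female WT, replicate 3 stood high for Slfn1 (5.26 CPM, others 1.45 to 1.83) and Slfn5 (22.9 CPM, others 1.90 to 3.18), and replicate 4 for Slfn8 (4.18 CPM, others 1.25 to 1.37). In male WT, replicate 3 stood high for Slfn1 (3.72 CPM, others 0.853 to 1.31), Slfn5 (14.5 CPM, others 3.96 to 4.77) and Slfn3 (0.654 CPM, others 0 to 0.0714). In male Slfn3KO, replicate 1 stood low for Slfn2 (3.59 CPM, others 14.03 to 16.1) and replicate 3 high for Slfn4 (20.6 CPM, others 13.7 to 14.8). In female Slfn3KO, replicate 3 stood high for Slfn1 (1.60 CPM, others 0.545 to 0.717).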

How the results depend on the processing

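In edgeR no member that could be tested was called between genotypes under RLE factors, no filter, at least 10 counts in every library (which left Slfn8 untested), the replicate block, the covariates, or the fits that left out 1 library. DESeq2 called 43 genes and 2 members pooled, 14 genes in the male groups, 504 genes and 2 members in the female groups and 24 genes for the interaction. An unadjusted p with 1.5-fold gave 910 genes and 4 members pooled, 272 and 3 in the male groups, 1366 and 3 in the female groups, and 946 genes for the interaction. Without WT libraries 3 and 4, chosen after seeing the data, the interaction had 359 calls among the 15093 genes tested. The 6 members tested had interaction values between −1.77 and 1.44 in that fit. The smallest adjusted p of the interaction in edgeR was then 0.0216, against 0.356 over all 16 libraries. The fit with the replicate number as a block called 1 gene pooled and took away the call on Cd79a (0 members), and changed no other adjusted call of a member. At an unadjusted p and 1.5-fold in edgeR, the block took away Slfn8 in the male groups (−2.37) and added Slfn1 for the interaction (−0.9995). Leaving out 1 library gave 0 to 2 members rising with Cd79a, where 5.82% of genes rose in the fit of all 16 libraries. There were 0 members without WT libraries 3 and 4, where 1.24% of genes rose. In Slfn3KO alone there were 0 of the 5 members tested, with Slfn8 untested, where 0.636% of genes rose. The causes were not tested.

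Directions turned in several fits. Pooled, Slfn5 was 0.53 and Slfn9 0.14 without WT libraries 3 and 4 (0.37 and 0.17 with Cd79a as a covariate as well), and Slfn9 lay between −0.31 and 0.038 when 1 library was left out. In the male groups, Slfn1 was 0.14 without the WT libraries. In the female groups Slfn5 was 0.18 with the block, 1.06 with Cd79a (where Slfn9 was 1.30), 1.2005 without WT libraries 3 and 4 and 1.02 without WT 3, Slfn4 was 0.20 with Cd79a and 0.052 without these libraries, and Slfn9 was −0.045 without WT 1. When 1 library was left out, Slfn5 ranged there from −0.88 to 1.02 and Slfn9 from −0.045 to 0.71. The interaction of Slfn2 was 0.21 with Cd79a, 0.050 without WT libraries 3 and 4 and 0.22 without female WT 3, that of Slfn8 was 0.21 without male Slfn3KO 1 and 0.19 without female WT 4, and that of Slfn5 was −0.09 without male Slfn3KO 1, −0.02, −0.07 and −0.0045 without female WT 1, 2 and 4 and −0.42 without male WT 3. Over all exclusions of 1 library the interaction ranged from −0.50 to 0.22 for Slfn2, −0.42 to 1.84 for Slfn5 and −1.37 to 0.21 for Slfn8, and the slope of Slfn9 from −0.012 to 0.12. Slopes on Cd79a turned for Slfn5 with the block (−0.013), for Slfn9 without male WT 3 (−0.012), without WT libraries 3 and 4 (−0.083) and in Slfn3KO alone (−0.029), and for Slfn8 without WT libraries 3 and 4 (−0.021). In mean CPM, Slfn5 was 1.42 and Slfn9 0.574 higher in Slfn3KO without these libraries, and Slfn9 was 0.0080 higher in mean log2 CPM. Depth limits Slfn3 and Slfn14, and nothing shows that the 4 mice per group came from separate litters, so that p-values measure the spread between these mice.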
